A study of Homo sapiens with 9 samples.

Results

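The peaks of LSD1 were set against those of HP1γ in T47D-MTVL cells before hormone. All peaks of both lists were taken, 34990 for LSD1 and 31845 for HP1γ. Together these are 66835 of the 118560 peaks in all lists of the series. The series profiled chromatin by ChIP-seq, the sequencing of DNA recovered with an antibody, around the response to the progestin R5020 and the synthesis of nuclear ATP from ADP-ribose. It holds 9 samples, for LSD1, HP1γ and BPTF at 30 and 0 min of 10 nM R5020 and for histone H2A at 0, 30 and 60 min. The groups used here are unstimulated T47D-MTVL cells with the abcam anti-LSD1 antibody and the same kind of cells with an anti-HP1γ monoclonal antibody, 1 library each. Both had been kept in charcoal-treated serum for 48 hr and without serum for 1 day, and were fixed with 1% formaldehyde for 10 min. T47D-MTVL is a human luminal breast cancer line with an integrated reporter under the mouse mammary tumour virus promoter. It is 1 line, and its identity could not be checked, since the lists hold positions and no expression values.

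LSD1, also called KDM1A, is a histone demethylase that acts with the CoREST proteins and with histone deacetylases, and REST brings it to neuronal genes in other tissues. HP1γ, the product of CBX3, binds methylated lysine 9 of histone H3 through its chromodomain and is found both in silent chromatin and in the bodies of transcribed genes. In breast cancer cells of this lineage, a repressive complex with HP1γ, LSD1 and the unliganded progesterone receptor is known to sit at hormone-regulated genes and to leave them after progestin.

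The sequences below are the central 300 bases of 4 peaks, shown because they span a wide range of base composition, which differed between the lists. They come from the GRCh37 reference, + strand, and capitals mark CpG dinucleotides. The first is the HP1γ peak with the highest score among those with no LSD1 peak, 572477 bp from the nearest protein-coding start, that of PYDC2 (chr3:191751279-191751578, 41.7% GC).
Near PYDC2, HP1γ alone: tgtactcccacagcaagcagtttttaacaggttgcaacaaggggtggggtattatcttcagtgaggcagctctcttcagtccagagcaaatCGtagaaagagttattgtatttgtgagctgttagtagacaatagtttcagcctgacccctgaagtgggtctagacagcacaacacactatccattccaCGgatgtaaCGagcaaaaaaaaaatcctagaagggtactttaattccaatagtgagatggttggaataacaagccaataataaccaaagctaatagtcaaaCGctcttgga
The next pair comes from gene starts with peaks of both proteins, TMEM81 (chr1:205054284-205054583, 38.3% GC) and ORMDL2 (chr12:56210419-56210718, 32.3% GC). The bases are the centre of the LSD1 peak within 1 kb of the start, and "both" refers to the start. An HP1γ peak overlaps this LSD1 peak at TMEM81 but not at ORMDL2, where the LSD1 peak lies in an intron of SARNP. The start shared by COPA and NCSTN, which had a higher LSD1 score, is not printed.
TMEM81 start, both: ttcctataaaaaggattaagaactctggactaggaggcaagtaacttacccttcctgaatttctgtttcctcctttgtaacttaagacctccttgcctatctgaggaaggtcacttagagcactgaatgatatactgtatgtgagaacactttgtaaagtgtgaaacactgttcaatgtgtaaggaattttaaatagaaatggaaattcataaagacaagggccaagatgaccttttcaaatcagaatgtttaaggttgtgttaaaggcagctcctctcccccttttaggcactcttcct
ORMDL2 start, both: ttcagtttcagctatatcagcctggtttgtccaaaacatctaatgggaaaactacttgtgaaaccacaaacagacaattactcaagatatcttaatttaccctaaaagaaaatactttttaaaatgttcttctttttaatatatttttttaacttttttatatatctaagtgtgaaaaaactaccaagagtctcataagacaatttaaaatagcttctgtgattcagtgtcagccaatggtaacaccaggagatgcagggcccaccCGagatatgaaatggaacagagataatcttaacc
The last is an HP1γ peak with no LSD1 peak at the start of TRIM59 (chr3:160167782-160168081, 68.3% GC), which holds 27 CpG and was added after the values were seen.
TRIM59 start, HP1γ alone: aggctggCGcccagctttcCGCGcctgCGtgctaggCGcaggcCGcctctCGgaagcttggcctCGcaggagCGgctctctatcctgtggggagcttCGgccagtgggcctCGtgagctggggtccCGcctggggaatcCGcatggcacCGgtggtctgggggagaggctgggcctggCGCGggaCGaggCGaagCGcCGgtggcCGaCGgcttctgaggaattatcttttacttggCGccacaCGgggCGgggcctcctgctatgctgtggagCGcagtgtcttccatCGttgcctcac

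The lists differed in base composition. The median GC content of whole peaks was 37.6% for LSD1 (quartiles 34.96% and 40.8%) and 42.1% for HP1γ (quartiles 38.4% and 46.4%), beside a median of 40% over 9451953 consecutive windows of 300 bases across the genome. LSD1 peaks had the lower median on 23 of 23 chromosomes, with a difference of -3.33 percentage points on chromosome 3 and of -9.07 on chromosome 22. GC-rich peaks, with 50% GC or more, made up 2.19% of the LSD1 list and 16.4% of the HP1γ list, beside 15.9% of genome windows. At the other end, peaks under 35% GC made up 24.4% of the LSD1 list and 5.69% of the HP1γ list, beside 26.5% of windows. Relative to the genome, GC-rich sequence was scarce in the LSD1 list and AT-rich sequence in the HP1γ list. The central 300 bases held on average 1.94 CpG in LSD1 peaks and 3.04 in HP1γ peaks.

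**Figure D1:**
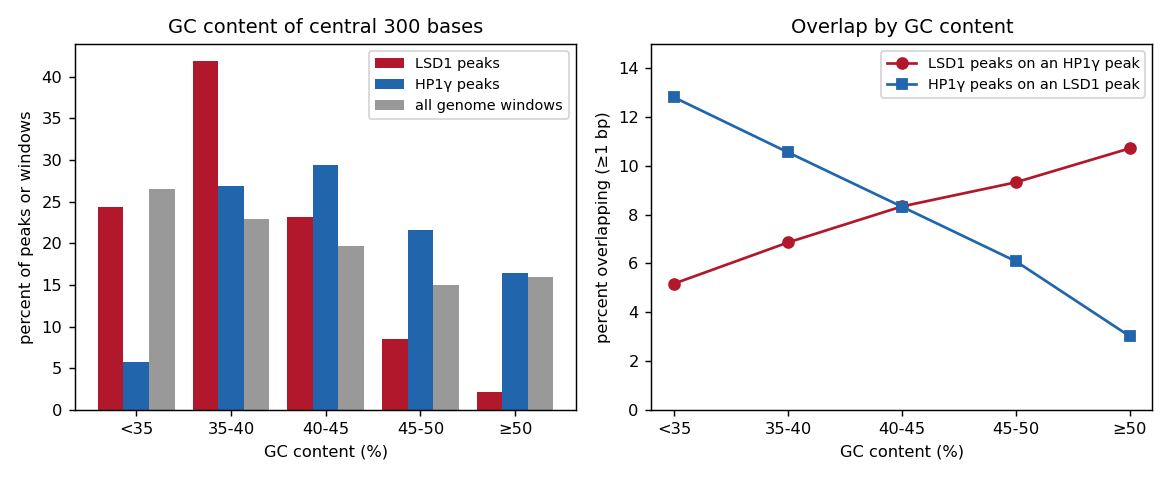
Left, the share of LSD1 peaks, HP1γ peaks and genome windows (percent, vertical) in 5 classes of GC content (percent, horizontal). Right, the share of LSD1 peaks on an HP1γ peak and of HP1γ peaks on an LSD1 peak in the same classes, which runs up with GC for LSD1, to 10.7% at 50% or more, and down for HP1γ, to 3.02%.

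With 1 library a side there was no replicate check and no test between the proteins. Intervals below are Wilson 95% intervals over peaks, which cover the sampling of peaks only and not the spread between cultures. The depth of both libraries was unknown, and no input library was used here.

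Most sites carried a peak of 1 protein. Of the LSD1 peaks, 2479 overlapped an HP1γ peak by at least 1 bp, which is 7.08% (interval 6.82 to 7.36), and 2492 HP1γ peaks overlapped an LSD1 peak, which is 7.83% (7.54 to 8.13). No peak of the other protein touched the remaining 32511 LSD1 and 29353 HP1γ peaks. The 2536 overlapping pairs shared a median of 377 bp, or 78.4% of the shorter peak, and their centres lay a median of 205 bp apart. HP1γ peaks held 4.49% of the bases of LSD1 peaks, while they covered 0.909% of bases when chromosomes were weighted by their LSD1 bases. LSD1 peaks held 5.61% of the bases of HP1γ peaks, while they covered 1.14% of bases weighted by HP1γ. Sharing thus exceeded base coverage in both directions but remained a small part of each list. This coverage was weighted by whole chromosomes only. Peaks of both lists also crowd in the same regions within chromosomes, and the part of that in the excess was not tested.

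The overlap grew with the authors' score. It was used to order peaks within a list and to cut both lists at the same value, though their scores are not on a common scale. Among LSD1 peaks scored under 35, 5.22% met an HP1γ peak, against 20.9% (17.8 to 24.3) of the 609 scored 75 or more. The same classes of HP1γ peaks gave 6.198% and 25.1% (20.6 to 30.1, 319 peaks). Median width rose over these classes too, 479 and 870 bp for LSD1 and 448 and 799 bp for HP1γ. Of peaks scored 50 or more, 30.9% of LSD1 and 27.9% of HP1γ peaks lay on chromosome 3. The parts of width and chromosome in this rise were not tested. The overlap also followed base composition, in opposite directions. Both trends count the same pairs, and the part of the GC difference between the lists in them was not tested. LSD1 peaks met HP1γ more often where they were GC-rich, 5.17% under 35% GC and 10.7% at 50% or more, and HP1γ peaks met LSD1 more often where they were AT-rich, 12.8% and 3.02% in the same classes. Accordingly, shared LSD1 peaks had a median GC of 38.5%, against 37.5% for LSD1 peaks alone, and shared HP1γ peaks 39.8%, against 42.3% alone. The lists after hormone, which differ in length, gave a scale for these shares. Per 10000 peaks of the other list, LSD1 peaks at 0 min overlapped 2.22% with HP1γ at 0 min, 1.81% with LSD1 at 30 min and 2.00% with HP1γ at 30 min. The LSD1 list before hormone thus met the HP1γ list of the same time at least as often as it met its own antibody's list after hormone.

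Distances between neighbours were taken over all peaks, overlapping ones included. The nearest HP1γ centre lay a median of 12050 bp from an LSD1 centre, and the nearest LSD1 centre 11735 bp from an HP1γ centre. Within 1 kb were 9.81% of LSD1 and 10.8% of HP1γ peaks, and within 10 kb 45.01% and 46.1%. The distance to the next peak of the same protein was similar in size, 10222 bp for LSD1 and 13349 bp for HP1γ.

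LSD1 peaks were wider. The median width was 536 bp for LSD1 (quartiles 468 and 650, range 263 to 2756) and 468 bp for HP1γ (quartiles 429 and 558, range 227 to 2621). Peaks of 1000 bp or more numbered 1272 for LSD1 (3.64%) and 533 for HP1γ (1.67%). Within each list the shared peaks were wider, with a median of 616 bp against 533 bp alone for LSD1 and 510 bp against 465 bp alone for HP1γ.

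The highest-scored unshared LSD1 peaks lay on chromosomes 3 and 5. They were in an intron of ACAP2 (score 152), then a peak 51822 bp from the start of ATP13A5 (144.3), one 150441 bp from PIK3R1 (138.88), and introns of SPATA16 (138.01) and ATP11B (134.88). ATP11B and ATP13A5 encode P-type ATPases, PIK3R1 the regulatory subunit of phosphoinositide 3-kinase. The highest-scored unshared HP1γ peaks, after the one near PYDC2 (142.31), lay 435907 bp from SULF1 (126.53), 242385 bp from TBL1XR1 (122.94), in an intron of SLC36A3 (122.62) and on coding sequence of SNRPF (119.5). TBL1XR1 belongs to the NCoR corepressor complex, and SNRPF is a core protein of the spliceosome. Shared sites with the highest LSD1 scores were one in the noncoding gene SOX2-OT (132.88 for LSD1, 41.57 for HP1γ), introns of IGF2BP2 (132 and 32.88) and IL1RAP (124 and 79.57), and sites between protein-coding genes nearest FGF12 (128.63 and 72.61) and KCNMB2 (123.54 and 73.49). All 5 are on chromosome 3. The highest HP1γ score of the list, 155.06, was also at a shared site, in an intron of FNDC3B, where the LSD1 score was 37.43. This site was singled out after its value was seen, and scores of the 2 lists are not on a common scale.

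Both proteins had very uneven peaks across chromosomes, in nearly the same order. Chromosome 3 was densest, with 30.7 LSD1 and 24.2 HP1γ peaks per Mb, followed by chromosome 12 with 27.3 and 22.6 and chromosome 8 with 24.6 and 20.6. Chromosome X was sparsest, with 0.380 and 0.605 per Mb. The Spearman correlation of the 2 densities over 23 chromosomes was 0.976, a description of 2 libraries from 1 line. Over 3030 windows of 1 Mb it was 0.873, and within chromosomes it ran between 0.0759 and 0.914 with a median of 0.732. Points of a list share its library. Median H2A RPKM of a chromosome's genes at 0 min moved with both densities, with a Spearman of 0.691 for LSD1 and 0.751 for HP1γ over the 23 chromosomes, and its part in the order was not tested.

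Against this shared order, LSD1 was more concentrated on dense chromosomes. Chromosome 3 held 17.4% of LSD1 peaks (17.0 to 17.8) and 15.1% of HP1γ peaks (14.7 to 15.5). The share of LSD1 peaks was higher on 7 chromosomes and that of HP1γ peaks on 16, with intervals apart on 3 and 11 of these. The ratio of shares, LSD1 over HP1γ, was 1.15 on chromosome 3, 1.10 on chromosome 12 and 1.09 on chromosome 8, but 0.387 on chromosome 19 (48 and 113 peaks), 0.523 on chromosome 20 (232 and 404) and 0.563 on chromosome 16 (473 and 765). Over the 23 chromosomes this ratio went with LSD1 density (Spearman 0.865, both from the same LSD1 counts) and little with GC content of the chromosome (-0.30) or genes per Mb (-0.25). Overlap was highest on chromosome 3, at 14.7% of its LSD1 and 18.8% of its HP1γ peaks. Chromosome 22, with 45 and 70 peaks, had 0 overlaps. The Wilson intervals allow a share of up to 7.87% of its LSD1 and 5.20% of its HP1γ peaks.

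**Figure D2:**
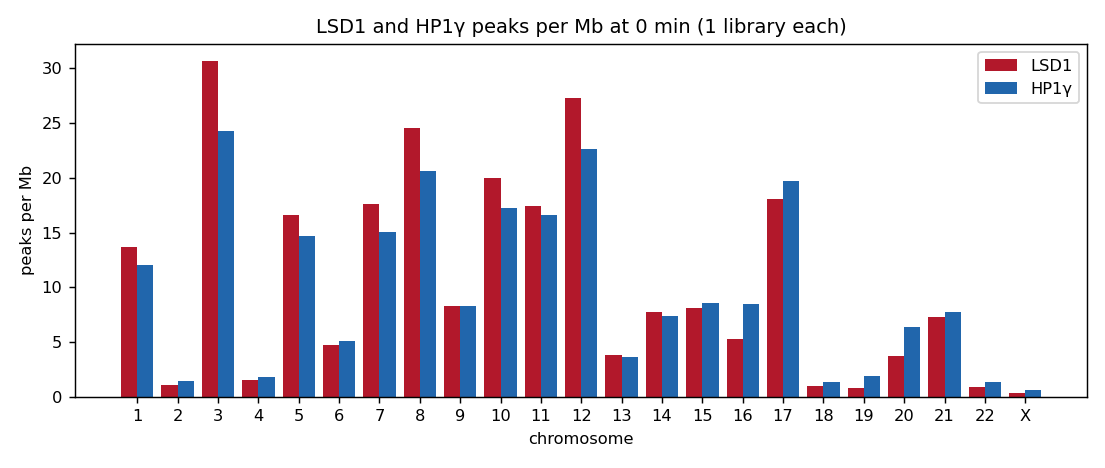
Peaks per Mb (vertical) of LSD1 and, beside it, HP1γ on each chromosome (horizontal), 1 library each. Chromosomes 3, 12 and 8 are highest for both, and HP1γ exceeds LSD1 on chromosomes such as 16, 17, 19 and 20.

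The densest windows for both proteins were in the distal long arm of chromosome 3. The window chr3:173000001-174000000, which holds much of NLGN1, a synaptic adhesion gene, had 138 LSD1 and 100 HP1γ peaks. At chr3:190000001-191000000, with CLDN1, a tight junction gene, and IL1RAP, there were 138 LSD1 and 83 HP1γ peaks. HP1γ was densest at chr3:191000001-192000000, with 126 LSD1 and 123 HP1γ peaks. The largest excess of LSD1 was at chr3:164000001-165000000, around SLITRK3 and SI, with 97 LSD1 and 31 HP1γ peaks. The largest excesses of HP1γ were elsewhere. On chromosome 16, chr16:87000001-88000000 had 5 LSD1 and 35 HP1γ peaks, and the neighbouring window with the forkhead genes FOXF1, FOXC2 and FOXL1 had 15 and 44. A window of chromosome 5 with TERT, the telomerase subunit, had 6 LSD1 and 32 HP1γ peaks, and one of chromosome 7 with the actin gene ACTB had 5 and 30. Of all windows, 2065 held both proteins, 191 LSD1 alone, 374 HP1γ alone and 400 neither.

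HP1γ peaks lay at gene starts more often than LSD1 peaks. Within 1 kb of a protein-coding start lay 453 LSD1 peaks, 1.29% (1.18 to 1.42), and 815 HP1γ peaks, 2.56% (2.39 to 2.74). Counted by centres, which does not depend on width, the shares were 0.897% for LSD1 and 2.03% for HP1γ, beside 1.26% and 1.29% of bases after weighting chromosomes by each list. LSD1 centres were thus below, and HP1γ centres above, the share of bases in these intervals. In the 500 bp on the upstream side of the start lay 53 LSD1 and 169 HP1γ centres, and in the 500 bp on the downstream side 45 and 164. Between 500 and 1000 bp there were 108 LSD1 and 154 HP1γ centres upstream and 108 and 159 downstream, so LSD1 was less sparse than next to the start but still below HP1γ. Peaks of HP1γ at starts were GC-rich, with a median of 50.2% and 10.1 CpG per central 300 bases, against 40.6% and 3.73 for LSD1 peaks at starts. The part of base composition in the dip of LSD1 was not tested.

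**Figure D3:**
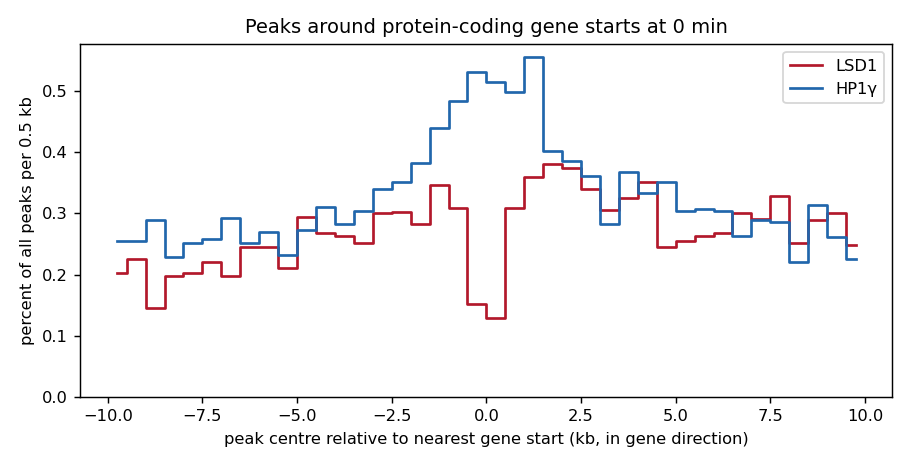
Share of all peaks of a list per 0.5 kb (percent, vertical) by the distance of the peak centre from the nearest protein-coding gene start (kb in the direction of the gene, horizontal). The LSD1 line dips to 0.129% just downstream of the start, where the HP1γ line stands at 0.515%.

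LSD1 peaks lay in gene bodies slightly more often, and farther from starts. Gene bodies held 42.5% of LSD1 (41.9 to 43.0) and 41.0% of HP1γ peaks (40.4 to 41.5). By centres these were 42.2% and 40.6%, above the 39.1% and 38.9% of bases after weighting. Exons of protein-coding genes were touched by 6.68% of LSD1 and 6.79% of HP1γ peaks, and coding sequence by 4.76% and 4.80%. By centres, HP1γ was higher on both. Exons held 3.02% of LSD1 and 3.41% of HP1γ centres, beside 2.79% and 2.84% of bases after weighting. Coding sequence held 1.26% and 1.68%, beside 1.19% and 1.21% of bases. Introns alone held 37.1% and 35.3%, and 57.0% and 58.2% lay between genes. The median distance to the nearest start was 85218.5 bp for LSD1 and 70835 bp for HP1γ, and 46.2% and 41.0% of peaks lay over 100 kb away.

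At the level of genes, 483 starts carried an LSD1 peak within 1 kb (2.38% of 20318 genes), 858 an HP1γ peak (4.22%) and 77 both (0.379%). Starts with both make up 15.9% of LSD1 and 8.97% of HP1γ starts. At 46 of the 77 the peaks themselves overlapped. The highest LSD1 scores among the 77 were at COPA and NCSTN, which share 1 pair of peaks (109.32 for LSD1, 32.91 for HP1γ), then TMEM81 (99.46 and 46.14), ORMDL2 with its divergent neighbour SARNP (56.68 and 48.71), DNAJC19 (50.82 and 48.96), HIST1H3A (49.46 and 39.47), LPP (49.05 and 36.13), ZNF300 (48.57 and 34.29) and TTC17 (48.29 and 32.88). COPA encodes a subunit of the COPI vesicle coat, NCSTN a subunit of γ-secretase, DNAJC19 a cochaperone of mitochondrial import and HIST1H3A a replication histone H3. Genes of chromatin and hormone biology among the 77, chosen after their values were seen, included SUZ12 of Polycomb complex PRC2 (40.88 and 40.61), RARA, the retinoic acid receptor (40.55 and 41.18), and SRA1, which gives rise to the steroid receptor RNA activator (31.6 and 50.57). The starts with the highest scores of LSD1 alone were NLGN1 (86.4), FAM72C (79.49), PDE4DIP (78.03), UBE2E1 (75.35) and TRMT5 (74.41), and of HP1γ alone TRIM59 (118.99, shared with a longer gene listed as ENSG00000248710), C10orf76 (86.35), RAB40B (84.1) and RPS6KC1 (82.43). FAM72C and PDE4DIP belong to near-identical copies on chromosome 1, so the placing of their reads is uncertain.

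LSD1 touched the bodies of 4382 genes (21.6%) and HP1γ those of 4885 (24%). Both touched 2840 (14%), LSD1 only 1542 (7.59%) and HP1γ only 2045 (10.1%). The order of these single-protein counts turned when 2 peaks or more were required, at 880 for LSD1 only and 871 for HP1γ only. It also turned at scores of 50 or more, at 773 and 535, a cut that left 5076 LSD1 and 3352 HP1γ peaks. Genes touched by both are 64.8% of LSD1 genes and 58.1% of HP1γ genes, a far larger share than that of overlapping peaks, and only 670 of the 2840 had an overlapping pair within the body. Gene length moved with these classes. The median length was 40.2 kb for LSD1 only, 94.9 kb for both, 34.7 kb for HP1γ only and 13.4 kb for neither. Base composition moved with them too, with a median gene GC of 40.6% for LSD1 only, 40.3% for both, 45.7% for HP1γ only and 48.2% for neither.

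The split between proteins followed the GC content of genes. In genes under 37% GC, LSD1 touched 41.5% and HP1γ 34.2%, with 17.4 and 9.87 peaks per Mb of body. Between 40% and 45% GC they were level, at 30.9% and 31.5% of genes and 13.5 and 13.3 peaks per Mb. In genes of 50% GC or more, LSD1 touched 3.79% and HP1γ 11.1%, with 2.92 and 9.64 peaks per Mb. Median length fell too, from 60.3 kb under 37% GC to 8.47 kb at 50% or more. The part of length in the touched shares was not tested. Over the 5 classes, HP1γ density stayed between 9.64 and 13.3 peaks per Mb, while that of LSD1 ran between 2.92 and 17.4. By length, genes under 10 kb were touched in 3.43% by LSD1 and 5.61% by HP1γ, and 38 and 44 of the 47 genes of 1000 kb or more were touched.

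Single genes with the largest excess of LSD1 peaks were long and AT-rich. CTNNA3, an α-catenin, had 95 LSD1 and 49 HP1γ peaks. CADM2, a synaptic adhesion gene, had 70 and 34, and NLGN1 had 120 and 86. ANKS1B had 52 and 22, PRKG1, a cGMP-dependent kinase, 61 and 34, DGKB, a diacylglycerol kinase, 49 and 23, and MAGI2, a synaptic scaffold, 59 and 35. PCDH15, a cadherin of hair cells, had 44 and 21, VPS13B 46 and 24, and IQCJ-SCHIP1 54 and 33. The GC content of these 10 genes ran between 34.0% in CADM2 and 38.8% in IQCJ-SCHIP1.

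The largest excess of HP1γ was in FLI1, an ETS transcription factor, with 2 LSD1 and 20 HP1γ peaks over 124862 bp. EIF2B5, a subunit of an initiation factor with an annotated span of 549383 bp, had 19 and 34. The glutamate receptor GRIK4 had 9 and 23, the RNA editing family member ADARB2 8 and 22, C16orf95 1 and 14, and the calcium channel CACNA1B 1 and 13. MB21D2 had 4 and 16. The potassium channel genes KCNMA1 and KCNMB2 had 28 and 40 and 53 and 63, and CDH13, a cadherin, had 20 and 30. The GC content of these 10 ran between 37.7% in KCNMB2 and 50.2% in EIF2B5, and 9 of the 10 exceeded every gene of the LSD1 group. H2A levels at 30 min, as ratios of RPKM to 0 min, were above 1 in 10 of 10 genes of the LSD1 group (1.03 in IQCJ-SCHIP1 to 1.32 in CADM2). They were below 1 in 9 of 10 genes of the HP1γ group (0.848 in EIF2B5 to 1.04 in KCNMB2). Each H2A time is 1 library, and the part of GC content in this split was not tested.

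**Figure D4:**
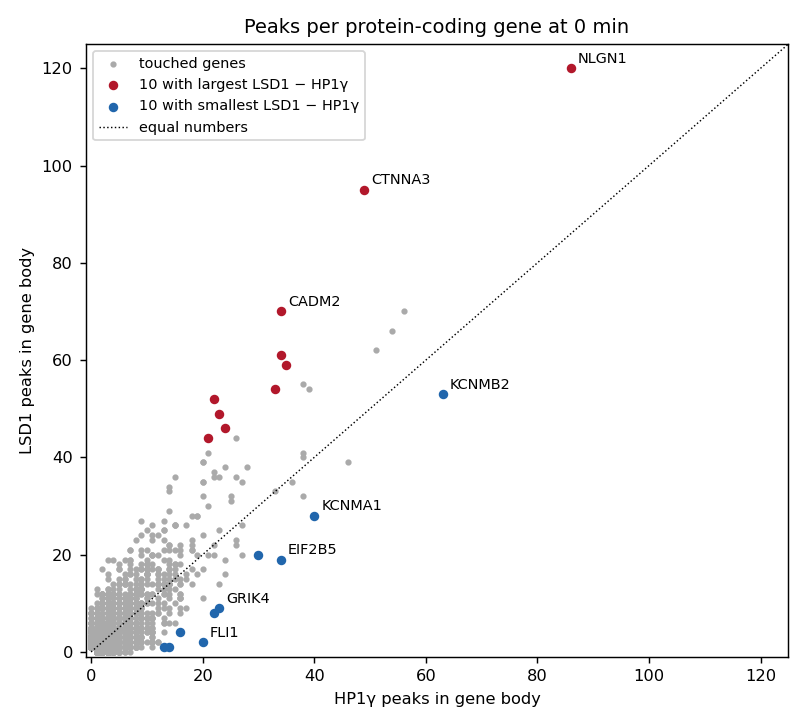
LSD1 peaks (vertical) against HP1γ peaks (horizontal) in the body of each touched gene, with the line of equal numbers. Red points are the 10 genes with the largest excess of LSD1, such as NLGN1 at 120 and 86, and blue points the 10 with the largest excess of HP1γ, such as FLI1 at 2 and 20.

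Over all 6427 touched genes, 2763 had more LSD1 peaks, 2859 more HP1γ peaks and 805 equal numbers. At least 5 peaks of LSD1 and none of HP1γ were found in 24 genes, led by DNAH14, an axonemal dynein (9), then FRS2, an adaptor of FGF receptors, SERPINI1 (neuroserpin), SLC16A9 and XKR9 (8 each). At least 5 of HP1γ and none of LSD1 were found in 17 genes, led by RBFOX3, a neuronal splicing factor (7), ACKR2, a chemokine scavenging receptor, and HIP1 (6 each). Among the genes with 5 HP1γ peaks were ANKRD11, PPARGC1B, a coactivator of nuclear receptors, and LGR6. These genes were named after their values were seen. Across genes, the median log2 change of H2A at 30 min over 0 min was -0.01 in genes touched by LSD1 only, 0.00 in both, -0.16 in HP1γ only and -0.18 in neither, beside -0.14 in all genes.

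Genes of the progestin response are where the complex of the receptor with both proteins is known to act. Of 37 such genes, LSD1 touched 11, HP1γ 10 and both 8. These are 29.7%, 27.03% and 21.6%, beside 21.6%, 24% and 14% of all genes. Their median length was 13.0 kb, and all genes of 10 to 30 kb were touched in 13.0%, 16.6% and 5.10%. Genes of the list with both proteins were longer than that median, 24351 bp in BCL6 to 237503 bp in EGFR. The median GC of the list was 48.8%, against 45.4% for all genes, and the parts of length and GC were not tested. Those with both were EGFR (9 LSD1 and 7 HP1γ peaks), TIPARP, a mono-ADP-ribosyltransferase (5 and 3), HSD17B2, a steroid dehydrogenase (4 and 4), CAT, catalase (3 and 5), STAT5B (3 and 2), NDRG1 (3 and 1), BCL6, a repressor (2 and 2), and ZBTB16 (1 and 3). LSD1 alone touched FKBP5, a chaperone of steroid receptors (2), PGR, the progesterone receptor (2), and ELF5 (1), and HP1γ alone KLF4 (1) and STAT5A (1). The remaining genes, among them FOS, MYC, CCND1, JUN, DUSP1, SGK1 and PER1, had no peak of either in the body. Only NDRG1 had a peak at its start, of LSD1 (30.43). AREG is listed under 2 identifiers and counted for both. Among steroid receptor genes, NR3C1, the glucocorticoid receptor, had 9 LSD1 and 4 HP1γ peaks and ESR2 had 2 and 1, while ESR1 and NR3C2 had none.

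Of 29 genes for LSD1, CoREST and HP1 partners, LSD1 touched 11 (37.9%), HP1γ 9 (31.0%) and both 7 (24.1%), beside 21.6%, 24% and 14% of all genes. Their median length was 38.3 kb against 21.9 kb for all genes, and of genes of 30 to 100 kb LSD1 touched 33.1%, HP1γ 33.9% and both 21.0%. These 7 were PHF21A, a CoREST subunit (6 LSD1 and 7 HP1γ peaks), EHMT1, an H3K9 methyltransferase (5 and 2), GSE1 (4 and 3), KDM5B, an H3K4 demethylase (4 and 2), CBX5, which encodes HP1α (3 and 2), CDYL (1 and 3) and GFI1B (1 and 2). CBX3, RCOR3, SUV39H2 and ZMYM2 each had 1 LSD1 peak and no HP1γ peak, and RCOR1 had 1 HP1γ peak and no LSD1 peak. SRA1 had an HP1γ peak in its body and peaks of both at its start. KDM1A itself and REST had neither. Among 17 genes of poly-ADP-ribose and nuclear ATP, LSD1 touched 6 (35.3%), HP1γ 8 (47.1%) and both 5 (29.4%). Their median length was 42.1 kb, in the same class of 30 to 100 kb, with shares of 33.1%, 33.9% and 21.0%. NUDT5, known to make ATP from ADP-ribose in the nucleus, had 2 LSD1 peaks, 1 at its start (42.98), and no HP1γ peak. PARP1 had 1 LSD1 and 4 HP1γ peaks, TNKS2 had 7 and 5 and NMNAT2 7 and 4, and PARG had 0 and 1. HP1γ alone was at the starts of NMNAT1 (35.2) and TNKS (39.14).

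Of 40 genes under REST in non-neuronal cells, LSD1 touched 12 (30%), HP1γ 10 (25%) and both 8 (20%). Their median length was 34.5 kb, in the same length class of all genes, so these shares are near the background. SYT1, a calcium sensor of synaptic vesicles, had 22 LSD1 and 22 HP1γ peaks over 587338 bp, and SCN8A had 9 and 5. At starts, STMN2 had an LSD1 peak (64.01) and CHRNB2 an HP1γ peak (31.53). SYN1, SNAP25, SCN2A and most other members had neither. HP1γ alone touched GRIN2A, with 3 peaks.

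Marker lists of cell types differ in length and GC content, with medians of 44.4 kb and 41.7% for basal and mesenchymal, 18.5 kb and 49.4% for luminal and 6.64 kb and 49.4% for immune genes, and the part of these was not tested. The share over all genes was 21.6% for LSD1 and 24% for HP1γ. Of 20 basal and mesenchymal markers, LSD1 touched 7 (35%), HP1γ 10 (50%) and both 6, with 61 and 51 peaks. TP63, the basal transcription factor, on chromosome 3, accounted for 31 LSD1 and 25 HP1γ of these and had an LSD1 peak at its start (49.15). EGFR had 9 and 7, and ACTA2, CD44 and TWIST1 had 6 and 4 each. SNAI2, a regulator of mesenchymal transition, had 2 HP1γ peaks and no LSD1 peak at its start (55.04), and KRT14 had an HP1γ peak there (39.77). Of 22 luminal markers, LSD1 touched 5, HP1γ 6 and both 4. PRLR had 5 LSD1 and 6 HP1γ peaks, AGR2 had 2 and 1, with LSD1 at its start (52.55), CDH1 and TFAP2C had 1 and 1, KRT8 had 0 and 4, ERBB2 0 and 1 and ERBB3 1 and 0. HP1γ alone was at the start of MUC1 (47.96). FOXA1, GATA3, XBP1, KRT18 and KRT19 had neither. Of 20 estrogen response genes, LSD1 touched 8, HP1γ 5 and both 2, which were RARA and IGFBP4. NRIP1 had 3 LSD1 peaks and no HP1γ peak, and CXCL12 the reverse, with 3 HP1γ peaks. Of 18 immune markers, which this line should not express, LSD1 touched 2, HP1γ 3 and both 1, PTPRC with 5 and 7 peaks and both at its start (39.64 and 37.82).

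HP1γ touched more keratin genes than LSD1 did. Of 55, LSD1 touched 7 (12.7%), HP1γ 18 (32.7%) and both 3, at 17.6 and 50.7 peaks per Mb of body, beside 13.3 and 11.8 in all genes. Starts carried LSD1 in 2 and HP1γ in 11, beside 2.38% and 4.22% of all genes. The HP1γ starts were those of KRT3, KRT4, KRT14, KRT15, KRT20, KRT23, KRT26, KRT31, KRT37, KRT78 and KRT82, and the LSD1 starts those of KRT3 and KRT38. The clusters lie on chromosomes 12 and 17, and keratin genes have a median GC of 50.9% against 45.4% for all genes. The part of GC was not tested, the counts are small, with 9 LSD1 and 26 HP1γ peaks, and reads from similar keratin copies may be placed with uncertainty. Of 51 clustered protocadherin genes, LSD1 touched 37 and HP1γ 38, but their bodies overlap, so that 1 peak is counted in many. PCDHA1 had 9 LSD1 and 4 HP1γ peaks and PCDHGA1 had 1 and 8, while PCDHGA12 had 1 and 1 and PCDHGC3 had 1 and 0.

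Zinc finger genes of chromosome 19, where HP1 proteins are known to coat clusters in other human cells, had few peaks. Of 245, LSD1 touched 13 (5.31%), HP1γ 20 (8.16%) and both 1, while all 1480 genes of that chromosome were touched in 1.69% by LSD1 and 4.05% by HP1γ. Of 253 zinc finger genes on other chromosomes, LSD1 touched 62 (24.5%) and HP1γ 82 (32.4%). Of 93 potassium channel genes, LSD1 touched 31 (33.3%) and HP1γ 32 (34.4%), with 245 and 248 peaks. Their median length was 37.9 kb, and all genes of 30 to 100 kb were touched in 33.1% and 33.9%. Of 43 collagen genes, LSD1 touched 17 (39.5%) and HP1γ 18 (41.9%). Their median length was 127 kb, and all genes of 100 to 300 kb were touched in 51.4% and 54.5%. Of 39 HOX genes, LSD1 touched 5 (12.8%) and HP1γ 5 (12.8%). Their median length was 4.52 kb, and all genes under 10 kb were touched in 3.43% and 5.61%, but overlapping HOX bodies can share a peak. The median length was 1.03 kb for olfactory receptor, 0.478 kb for replication histone and 4.50 kb for ribosomal protein genes. LSD1 touched 9 and HP1γ 7 of 377 olfactory receptor genes (2.39% and 1.86%), below the shares of genes under 10 kb. They touched 3 and 4 of 56 replication histone genes (5.36% and 7.14%) and 5 and 9 of 83 ribosomal protein genes (6.02% and 10.8%). These were above the 3.43% and 5.61% of genes under 10 kb, on small counts, and below the 21.6% and 24% of all genes. Starts of the histone genes carried LSD1 in 5 (8.93%) and HP1γ in 8 (14.3%), beside 2.38% and 4.22% of all genes, and neighbouring histone genes can share a peak.

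**Figure D5:**
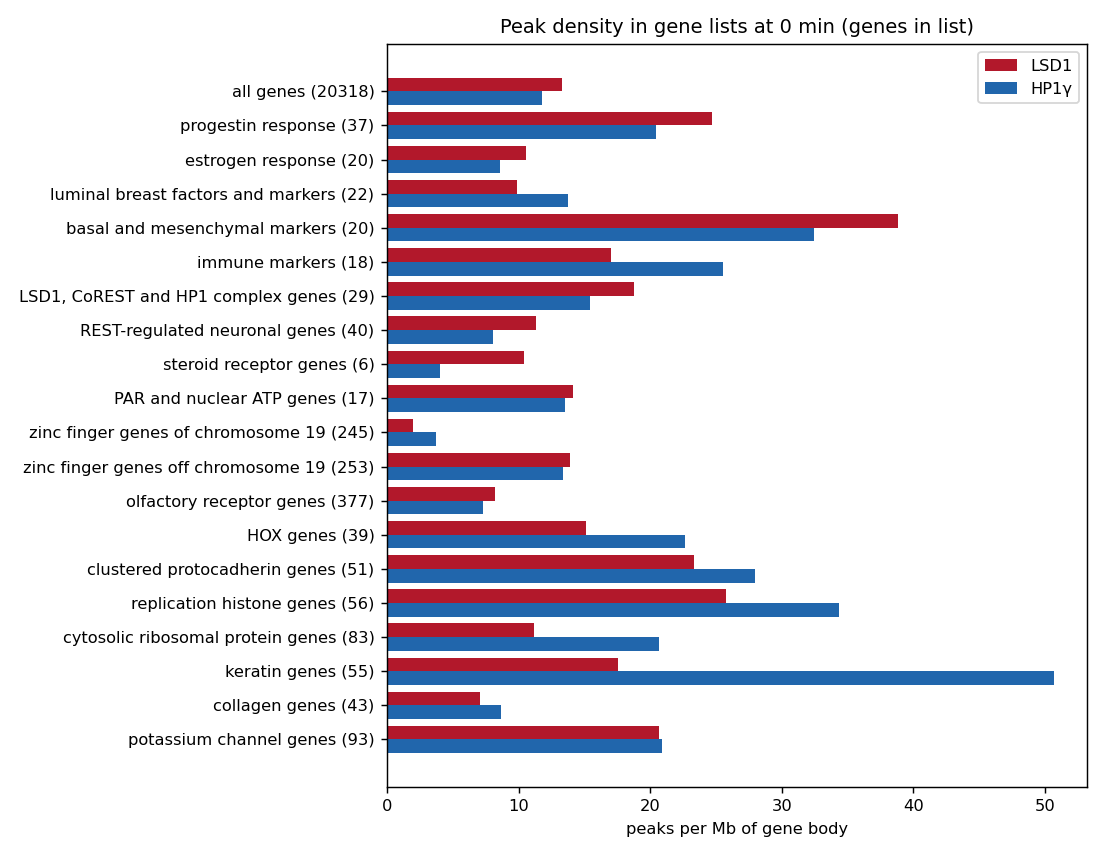
Peaks per Mb of gene body (horizontal) of LSD1 and HP1γ in all genes and in each list (vertical, with the number of genes). Of the lists plotted, keratin genes have the widest gap, 17.6 for LSD1 and 50.7 for HP1γ, and chromosome 19 zinc finger genes the lowest densities, 2.00 and 3.69.

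Short motifs were counted in the central 300 bases, read on both strands. ACANNNTGT, the spaced core shared by progesterone and glucocorticoid receptor elements, was present in 10.4% of LSD1 peaks (10.1 to 10.8) and 8.62% of HP1γ peaks (8.32 to 8.93), beside 8.91% of genome windows. Within classes of GC the difference varied. The motif was in 11.7% of LSD1 and 11.5% of HP1γ peaks under 35% GC (10.8% of windows) and 11.1% and 10.1% between 35% and 40% (10.2% of windows), the class with the most LSD1 peaks. The shares were 9.34% and 9.36% between 40% and 45% (9.09%), 7.50% and 7.62% between 45% and 50% (7.14%), and 6.14% and 5.23% at 50% or more (5.31%). TGTTCT, 1 arm of that element, was in 25.9% and 23.7% (23.1% of windows), the forkhead motif TGTTTAC in 5.39% and 4.27% (4.67%), the GATA motif AGATAAG in 5.30% and 4.53% (4.35%) and the AP-1 motif TGANTCA in 11.0% and 10.2% (9.31%). The E-box CACCTG ran the other way, in 15.04% of LSD1 and 23.5% of HP1γ peaks (20.9% of windows), as did CGCGCG, in 0.0457% and 0.301% (0.334%). TGTTCT can overlap ACANNNTGT, and a match of letters is not a bound site. Only ACANNNTGT was split by GC content. Of the sequences above, that of TMEM81 holds ACANNNTGT, at base 147.

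BPTF is a subunit of the NURF chromatin remodeller, and its sites that changed with hormone were set against both lists. Of 5546 sites from which BPTF was displaced after hormone, 298 overlapped LSD1 (5.37%, 4.81 to 5.998) and 229 HP1γ at 0 min (4.13%, 3.64 to 4.69). Of 1848 sites to which it was recruited, 64 overlapped LSD1 (3.46%, 2.72 to 4.40) and 93 HP1γ (5.03%, 4.13 to 6.13). Neither was at 91.1% of displaced and 91.9% of recruited sites. Against the lists at 30 min, LSD1 and HP1γ overlapped 2.27% and 2.49% of displaced and 1.89% and 2.87% of recruited sites. LSD1 peaks at 0 min covered 0.676% and HP1γ peaks 0.541% of genome bases. No background matched to the width and position of BPTF sites was computed.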

How the data were processed

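ChIP-seq reads of LSD1 and HP1γ at 0 min had been turned into peak lists by the authors, 1 library per list. The submitters' processing notes name Bowtie 1.0.0, HOMER 4.7.2 and the build hg19 (GRCh37). The peak positions and the score per peak are as deposited by the authors, with a lowest score of 30. The peak names follow the pattern of MACS, but neither the caller's version nor a control nor the meaning of the score is given in the sources used here. Gene starts, ends and strands came from the table of H2A RPKM, made by the authors with HOMER over GENCODE 18 on both strands, per the file headers. Of its 20318 genes, 17672 had a symbol, and 2231 more took one from GENCODE 44 lifted to GRCh37, which also gave exons.

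Peaks of both lists counted as shared when they had 1 bp or more in common. A gene was touched when a peak had at least 1 bp in its body, and a start when a peak lay within 1 kb. Shares carry Wilson 95% intervals over peaks. The change of H2A was computed as log2 of RPKM, with 0.05 added to each value, at 30 min minus 0 min. The counting of overlaps was tested on simulated data. Python 3.11.15, pandas 2.3.3, NumPy 2.4.6, SciPy 1.17.1, pysam 0.24.0 and matplotlib 3.10.9 were used. The members and gene lists were chosen with earlier results of these data known. Named genes were the 10 with the largest and the 10 with the smallest difference in peak number, the 5 highest-scored peaks of each class, list members with a peak at the start, touched members of the progestin, complex and luminal lists, and the 10 starts with both proteins and the highest LSD1 score. Alternatives were other overlaps, flanks, score minimums, equal list sizes, another motif window and leaving out chromosome 3. Each sample is the only library of its group, so no p-value was computed. Some named genes and sequences are not reported here.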

Additional observations from a re-analysis of the deposited data

How the results depend on the processing

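No paired analysis was possible because each antibody and time has 1 library and the labels give no replicate numbers. The side of the difference between LSD1 and HP1γ held under all alternatives run for overlap (5), the share at starts (4), gene bodies (3), width (3), GC (3), chromosome 3 (2) and the motif (1). Among these alternatives the side turned only for genes touched by 1 protein. There, fewer LSD1-only than HP1γ-only genes were found in 3 of 5 alternatives. Requiring 2 peaks or more left 880 LSD1-only, 871 HP1γ-only and 1447 shared genes, and peaks scored 50 or more gave 773, 535 and 407. The score cut left lists of unequal length, 5076 LSD1 and 3352 HP1γ peaks. The cause of the turn was not tested. The overlap of LSD1 and of HP1γ peaks was 5.24% and 5.78% when 50% of the shorter peak had to be shared, 6.47% and 7.15% for centres within 500 bp, 3.37% and 5.04% at scores of 50 or more in both lists, 6.07% and 6.14% for the 20000 highest-scored peaks of each, and 5.48% and 5.87% without chromosome 3. The cut at 50 and the equal list sizes also shortened the list to be met, unlike the score classes above. Within 5 kb of a start lay 6.16% and 8.03% of peaks. HP1γ peaks at starts made up 3.64% at scores of 50 or more, and 2.76% both among the 20000 highest-scored and without chromosome 3. At scores of 50 or more, 43.2% of LSD1 and 40.4% of HP1γ peaks lay in gene bodies, 30.9% and 27.9% on chromosome 3, and median widths were 729 and 672 bp. Among the 20000 highest-scored peaks, 43.0% of LSD1 peaks lay in gene bodies, 20.5% of LSD1 and 16.9% of HP1γ peaks on chromosome 3, widths were 602 and 503 bp, and 1880 genes were shared. Without chromosome 3, widths were 527 and 463 bp. ACANNNTGT was in 7.10% of LSD1 and 5.73% of HP1γ peaks in the central 200 bases, a shorter window. That alternative did not address GC content. By GC class, LSD1 was not higher between 40% and 45% (9.34% and 9.36%) or between 45% and 50% (7.50% and 7.62%). Alternatives for GC were added after seeing the data, and its median ran between 37.3% and 37.7% for LSD1 and between 42.1% and 42.4% for HP1γ. The remaining 16 values moved by less than their interval or, for counts, by less than 1.5 times. Depth was unknown and limits which weaker sites were listed for either protein.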
